A study of Sus scrofa with 20 samples.

Results

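The cytosolic ribosome of the sow uterus was followed through 80 genes for its proteins. They were taken as all rows of the deposited gene table named as proteins of the large subunit (RPL), the small subunit (RPS), the acidic stalk (RPLP0, RPLP1, RPLP2) or RPSA, with a mean of at least 1 CPM, the counts scaled to a common library total, over the 20 libraries. The names of S6 kinases were left out. Of 30345 gene rows, 83 matched the name rule and 80 of these passed the minimum. Outside it lay RPL3L at a mean of 0.522 CPM, RPL10L at 0.0019 CPM with a count in 1 library, and another row named RPL18 at 0 in every library. The members nearest the minimum on the inside were RPL26L1 at 43.1 CPM, RPS27L at 56.7 CPM and RPL7L1 at 75.4 CPM, so no member lay close to it. The 80 members comprise 45 large-subunit proteins outside the stalk, 3 stalk proteins and 32 small-subunit proteins.

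Uterine tissue came from 20 Large White by Landrace crossbred sows, with 1 library per sow, slaughtered 6 days after the onset of estrus. The 4 groups of 5 differed in what was placed in the uterus. Control sows received no insemination. FR1 sows were inseminated with the sperm-rich fraction of the boar ejaculate alone. FR2 sows received the rich and intermediate fractions together, and FR3 sows the rich, intermediate and poor fractions. Semen came from 3 Pietrain boars, each of which gave 1 ejaculate of every kind, and inseminated sows were served repeatedly during estrus. All samples are labelled wild type and carry the same batch label. The labels do not say which sows carried embryos, so semen and early pregnancy cannot be told apart in any comparison with control.

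Ribosomal proteins are made in near-equal numbers and, together with the ribosomal RNAs, form the small subunit that reads the messenger RNA and the large subunit that joins amino acids. Their messenger RNAs start with a terminal oligopyrimidine (TOP) tract, through which mTOR complex 1 and LARP1 adjust their translation and stability together. They are among the most abundant messenger RNAs of most tissues, and several serve as reference genes for quantitative PCR. Most members have many processed pseudogenes, between which a read counter has to share reads, so the value of any 1 member is less certain than that of a gene without copies. Transcript lengths were not used here, so levels in CPM are compared between libraries for 1 gene and never between genes.

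Library totals ran from 33 to 62.9 M counts, and between 17006 and 21589 genes had a count above 0. Markers of the labelled tissue were present: 13 of 13 epithelial, 11 of 11 stromal and 11 of 11 smooth muscle markers found in the table had means above 1 CPM. The summed level of the smooth muscle markers ran from 1572 to 41272 CPM between libraries, so the pieces of uterus held different mixtures of cells. In bulk tissue, fewer cells of a type and less RNA per cell cannot be told apart. A library is called by its group and the number of its column, because the table does not tie columns to sows.

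The members together held 7.83% to 20.5% of all counts of a library, a 2.61-fold range. In control the shares were 13.2%, 7.83%, 7.93%, 13.2% and 15.9%, with a mean of 11.6% ± 3.59 (SD, n = 5). FR1 gave 11.5%, 10.1%, 12.7%, 12.4% and 12.0%, with a mean of 11.7% ± 1.03 (SD, n = 5), and FR2 gave 11.5%, 10.3%, 14.3%, 11.2% and 12.5%, with a mean of 12.0% ± 1.53 (SD, n = 5). FR3 gave 9.52%, 12.1%, 20.5%, 16.4% and 9.81%, with a mean of 13.6% ± 4.69 (SD, n = 5). Every group overlapped every other group. The wide spreads were those of control, where CONTROL_2 and CONTROL_3 were low and CONTROL_5 was high, and of FR3, where FR3_3 and FR3_4 were high. The plot of summed shares shows these libraries apart from the FR1 and FR2 libraries, which lie between 10.1% and 14.3%.

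**Figure D1:**
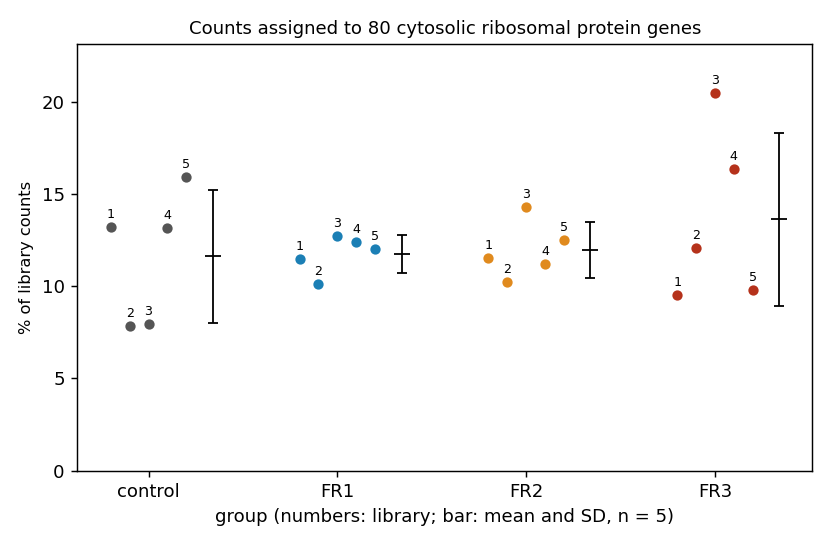
Percent of each library's counts assigned to the 80 ribosomal protein genes (vertical axis) by group, each point 1 library with its number, with the group mean and SD (n = 5) as a bar. The groups overlap, and the extremes are CONTROL_2 at 7.83% and FR3_3 at 20.5%.

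Gene by gene, the members moved as 1 block between libraries. The first principal component of their log2 levels, each centred on its own mean, carried 80.6% of the variance, and all 80 members loaded on it in the same direction. Subtracting from each library the mean of the members left 21.3% of the variance. FR3_3 held the highest level of 67 of the 80 members and CONTROL_5 that of 11. CONTROL_2 held the lowest level of 43 members, FR1_2 of 17 and CONTROL_3 of 8.

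The size of this shared movement was given by the median, over members, of each member's log2 deviation from its own mean. It was 0.99 in FR3_3, 0.60 in CONTROL_5 and 0.50 in FR3_4, and it was -0.48 in CONTROL_2, -0.37 in FR1_2 and -0.35 in CONTROL_3. All 80 members were above their own mean in FR3_3 and in FR3_4, while 1 was in CONTROL_2 and 0 were in FR1_2. A median of 15.6% of a member's variance lay between the means of the 4 groups, and the rest between libraries of the same group. Means of so few libraries differ by chance alone, so this share does not measure an effect of group. The value lay close to the average share that 4 groups of 5 libraries give when groups do not differ. Its difference from that share was not tested. The heat map of deviations shows the shared movement as dark columns that run through both subunits.

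**Figure D2:**
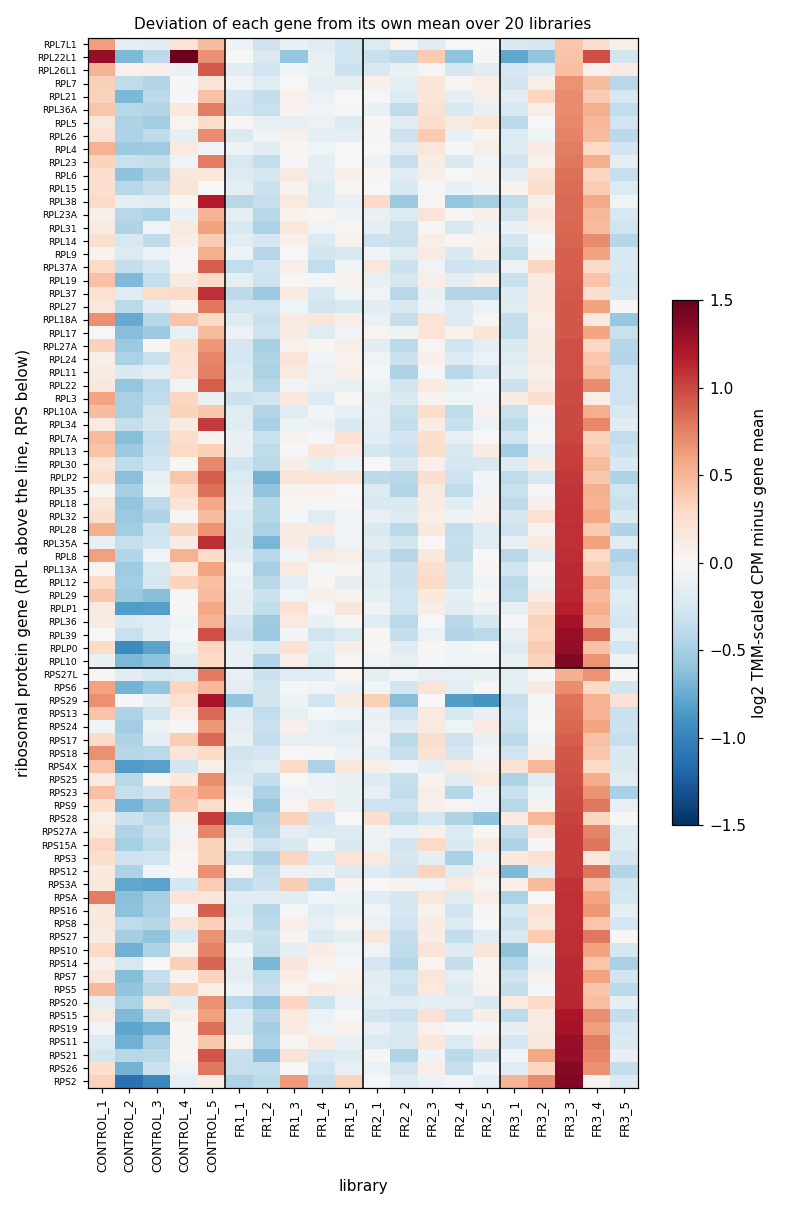
Deviation of each of the 80 members (rows, RPL and stalk above the line, RPS and RPSA below) from its own mean over 20 libraries (columns, by group), as log2 of TMM-scaled CPM. FR3_3 is red for all 80 members and CONTROL_2 is blue for 79, while RPL22L1 at the top follows a pattern of its own.

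Other properties of the libraries were measured beside this block. Red blood cell markers were highest in the 3 libraries with the highest member levels: of 5 listed markers 4 were in the table and 2 had a mean above 1 CPM, and their summed level was 1881 CPM in FR3_3, 582 CPM in CONTROL_5 and 345 CPM in FR3_4, against 9.98 to 226 CPM in the other 17 libraries. Nearly all of it was HBB, the beta chain of haemoglobin, at 1869 CPM in FR3_3, while the membrane marker SLC4A1 was at 0 in 15 libraries. Summed levels by group were 16.3 to 582 CPM in control, 20.9 to 69.5 CPM in FR1, 9.98 to 173 CPM in FR2 and 70.5 to 1881 CPM in FR3. Short genes differed as well: the median deviation of the 1019 other protein-coding genes with the shortest genomic span was 0.47 in CONTROL_5 and 0.37 in FR3_3 but -0.011 in FR3_4, and -0.29 in FR1_2. Some libraries went the other way. CONTROL_3, low in the members, had a short-gene deviation of 0.16 and 188 CPM of red cell markers, and FR3_5, with a member deviation of -0.26, had 226 CPM. FR3_3 and FR3_4 had the fewest genes above 0, at 17006 and 17372, with totals of 55.1 and 62.9 M counts. The part of these properties in the ribosomal protein levels was not tested.

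The spread of the members was similar to that of other abundant genes, a set not matched to them in level. The median SD of log2 CPM over 20 libraries was 0.40 for the members and 0.41 for the 1794 other genes at 100 CPM or more, and 34 of 80 members were above that value. It was lowest for RPL7L1 at 0.27, followed by RPL15 and RPL7 at 0.29, RPS27L at 0.30 and RPL4 at 0.31. The highest values were those of RPL22L1 at 0.66, RPS2 at 0.57, RPS29 at 0.55, RPS21 at 0.51 and RPL39 at 0.50. Members often used as reference genes had intermediate values, with 0.35 for RPL19, 0.37 for RPS18, 0.38 for RPL32, 0.39 for RPL13A and 0.46 for RPLP0. Among the common reference genes outside the ribosome, YWHAZ at 0.24 and GAPDH at 0.27 had lower SDs than each of these 5, and TFRC had the highest at 2.13.

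The first comparison asked whether the 15 inseminated sows differed from the 5 controls. Of the 80 ribosomal protein genes, 0 were called at an adjusted p below 0.05 by edgeR's quasi-likelihood test, where 11.1% of all 17745 genes tested were called. At an unadjusted p below 0.05 there were 5 members, against 26% of all genes. DESeq2 called 1 member, RPL26L1, and limma-voom called 0, where they called 2887 and 1308 of the 17745 genes. The median log2 change of the members was -0.042, with 28 above 0 and 52 below, beside -0.048 over all genes, and it was 0.024 when library totals alone set the scale and 0.11 without CONTROL_5. It was -0.15 without CONTROL_2, -0.12 without CONTROL_3 and -0.13 without FR3_3. With both CONTROL_2 and CONTROL_3 left out it was -0.29, with 75 of 80 below 0. The 95% intervals of 78 of 80 members lay within a 2-fold change in either direction, and those of RPL22L1 and RPS29 did not. The median standard error was 0.21 on the log2 scale, and changes inside a member's interval were not excluded at the 95% level.

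RPL26L1, a near-copy of RPL26, had the smallest p. Its level in control was 60.0, 44.2, 44.6, 39.4 and 79.8 CPM, after scaling by TMM factors as for all member levels that follow. In FR1 it was 38.0, 34.5, 40.4, 39.5 and 33.9 CPM, in FR2 35.7, 39.4, 42.7, 35.1 and 38.0 CPM, and in FR3 35.4, 37.3, 57.8, 44.2 and 46.1 CPM. CONTROL_1 and CONTROL_5 were above all 15 inseminated libraries, while the other 3 controls lay among them. The mean was 53.6 ± 16.6 CPM (SD, n = 5) in control and 39.9 ± 6.14 CPM (SD, n = 15) after insemination. The log2 change was -0.43 ± 0.14 (SE, edgeR adjusted p = 0.0542), just short of a call. It stayed below 0 in all 30 alternative analyses, with adjusted p-values from 0.0223 to 0.237, and was called in 9 of them, among these the fits without CONTROL_2, without CONTROL_4 and without FR3_3. RPL26 itself, from which RPL26L1 is named, averaged 1079 ± 387 CPM (SD, n = 5) in control and 1064 ± 256 CPM (SD, n = 15) after insemination, a log2 change of -0.025 ± 0.20 (SE, edgeR adjusted p = 0.957).

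RPL22L1, the paralog of RPL22 known from blood cell development and splicing, spread most of all members. Control libraries held 412, 104, 126, 458 and 267 CPM. FR1 libraries held 111 to 166 CPM, FR2 libraries 109 to 217 CPM, and FR3 libraries 96.7, 110.4, 223, 325 and 137 CPM. Thus CONTROL_1 and CONTROL_4 exceeded every inseminated library, and CONTROL_2 and CONTROL_3 lay in the lower part of the inseminated range. The log2 change of -0.81 ± 0.30 (SE) was not called (edgeR adjusted p = 0.0857), and over 30 alternatives its adjusted p ran from 0.0139 to 0.36, with calls in 4, among them those without CONTROL_2 and without FR3_4. RPL22 did not share this pattern, with 614 ± 274 CPM (SD, n = 5) in control, 592 ± 189 CPM (SD, n = 15) after insemination and a log2 change of -0.070 ± 0.22 (SE, edgeR adjusted p = 0.881).

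The remaining named paralogs were RPL7L1, which takes part in building the large subunit, and RPS27L, a target of p53. RPL7L1 had 87.3 ± 21.2 CPM (SD, n = 5) in control and 71.7 ± 10.9 CPM (SD, n = 15) after insemination, with a log2 change of -0.29 ± 0.13 (SE, edgeR adjusted p = 0.17). RPS27L had 59.4 ± 20.4 and 56.1 ± 12.0 CPM, with a log2 change of -0.095 ± 0.16 (SE, edgeR adjusted p = 0.752). All 4 paralogs thus had fitted changes below 0, and none was called. RPL22L1, RPL26L1 and RPL7L1 were also the members least like the rest: over the 20 libraries, which all members share together with their scaling, the correlation with the mean of the other members was 0.62, 0.63 and 0.69, beside a median of 0.92, given as a description. FR3_3, the highest library of 67 members, was not the highest for any of the 4 paralogs.

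RPL37, a small zinc-binding protein of the large subunit, had 855, 643, 881, 893 and 1559 CPM in control. FR1 gave 556, 499, 798, 622 and 699 CPM, FR2 gave 538 to 696 CPM, and FR3 gave 639, 805, 1386, 874 and 624 CPM. Only CONTROL_5 exceeded every inseminated library. The log2 change was -0.48 ± 0.19 (SE, edgeR adjusted p = 0.115), and without FR3_3 it was -0.56 and called (edgeR adjusted p = 0.0416). RPS29, also a small zinc-binding protein and mutated in some families with Diamond-Blackfan anaemia, was next, with 195 ± 82.3 CPM (SD, n = 5) in control, 134 ± 47.1 CPM (SD, n = 15) after insemination and a log2 change of -0.56 ± 0.23 (SE, edgeR adjusted p = 0.125).

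In the upward direction the smallest p-values were those of RPL10, RPS2 and RPS4X. RPL10 joins the large subunit late and is needed for the subunits to come together. Control libraries held 3726, 2507, 2618, 3501 and 4897 CPM of it, FR1 libraries 2948 to 4289 CPM, FR2 libraries 3661 to 3912 CPM, and FR3 libraries 3699, 5038, 10452, 6393 and 3785 CPM. The FR2 libraries were nearly alike, and FR3_3 stood far above all others. The log2 changes were 0.34 ± 0.22 for RPL10, 0.42 ± 0.27 for RPS2, which lines the messenger RNA entry, and 0.32 ± 0.21 for the X-linked RPS4X (SE, edgeR adjusted p = 0.348, 0.355 and 0.369). The plot of levels by library shows 6 of these genes side by side.

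**Figure D3:**
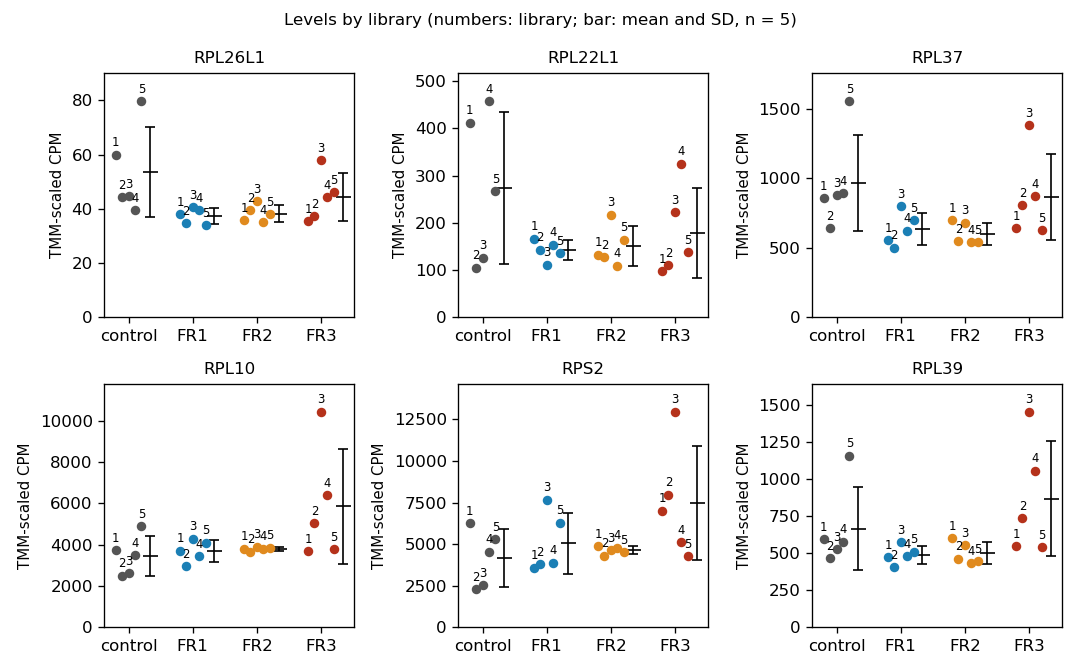
TMM-scaled CPM (vertical axes, from 0) of RPL26L1, RPL22L1, RPL37, RPL10, RPS2 and RPL39 by group, each point 1 library with its number and each bar the group mean and SD (n = 5). Libraries CONTROL_5 and FR3_3 lie high in several panels, and no gene separates the inseminated libraries from control.

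By role, 0 members were called in the same comparison, and differences between roles were not tested. The 3 stalk proteins, which recruit the translation factors, had log2 changes of 0.29 for RPLP0, 0.19 for RPLP1 and -0.25 for RPLP2, with edgeR adjusted p-values of 0.481 or more. RPL5 and RPL11 form, with 5S ribosomal RNA, the particle that can bind MDM2 and stabilise p53, and they had log2 changes of 0.12 ± 0.18 and -0.20 ± 0.19 (SE). The 9 members on the list of Diamond-Blackfan anaemia genes had a median of -0.024. RPS19, the gene most often mutated in that anaemia, was on this list, with 2329.7 ± 1135 CPM (SD, n = 5) in control and 2555 ± 955 CPM (SD, n = 15) after insemination. The 7 members that lie along the exit of the growing peptide had a median of -0.025. Large-subunit members outside the stalk had a median of -0.083 and small-subunit members one of -0.027.

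RPS6, the substrate of S6 kinase below mTOR complex 1, had 1778 ± 691 CPM (SD, n = 5) in control and 1645 ± 337 CPM (SD, n = 15) after insemination, a log2 change of -0.12 ± 0.20 (SE). RPSA, known also as a laminin receptor, had a change of -0.052 ± 0.23, RPS27A, made as a fusion with ubiquitin, one of -0.040 ± 0.21, and RPL3, next to the peptidyl transferase centre, one of -0.018 ± 0.19 (SE). For the reference genes RPL13A, RPL19, RPL32 and RPS18 the log2 changes were -0.0081, 0.018, 0.054 and -0.12. The intervals of these 4 spanned -0.54 to 0.47 in all, so modest differences in either direction were not excluded.

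Each insemination group was also set against control, with the same 5 control libraries in all 3 comparisons. In FR1, 0 of 80 members were called by edgeR, where 2.6% of all genes were, and 5 had an unadjusted p below 0.05, against 18.2% of all genes. In FR2, 0 of 80 were called against 5.55% of all genes, with 4 at an unadjusted p below 0.05, against 21.8% of all genes. In FR3, 0 of 80 were called against 4.27% of all genes, with 6 at an unadjusted p below 0.05, against 21.3% of all genes. DESeq2 called RPL26L1 in FR1, RPL26L1, RPL37 and RPS29 in FR2, and RPL10 in FR3, while limma-voom called 0 in each. Of all 17745 genes, DESeq2 called 1449, 2096 and 1876 in these 3 comparisons, and limma-voom 185, 705 and 295. In none of the 3 did the libraries of a member separate without overlap, against 2.6%, 5.04% and 2.19% of all genes, nor did they between all inseminated sows and control, against 0.468%.

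With all libraries, the fitted changes of FR1 and FR2 lay mostly below 0 and those of FR3 mostly above. The median log2 change of the members was -0.21 in FR1 with 72 of 80 below 0, and -0.17 in FR2 with 68 below 0, beside medians of -0.034 and -0.037 over all genes. In FR3 the median was 0.22 with 70 of 80 above 0, beside -0.055 over all genes. Without FR3_3 and FR3_4 the FR3 median was -0.24, and without FR3_3 alone it was -0.025. It was 0.11 without FR3_4, 0.11 without CONTROL_2 and 0.12 without CONTROL_3. Without CONTROL_5 the FR1 and FR2 medians were -0.036 and -0.027, and without CONTROL_2 they were -0.32 and -0.29. Without CONTROL_3 the FR2 median was -0.26. With both CONTROL_2 and CONTROL_3 left out, 0 of 80 members were above 0 in FR1 or FR2, with medians of -0.43 and -0.42, and the FR3 median turned to -0.043. Scaling by library totals alone kept the signs of these 3 medians, at -0.075, -0.033 and 0.14, and moved the median of all genes to 0.11, 0.099 and -0.11.

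In FR1 the 3 members with the smallest p were below control, at log2 changes of -0.52 ± 0.18 for RPL26L1, -0.42 ± 0.16 for RPL7L1 and -0.95 ± 0.38 for RPL22L1 (SE, edgeR adjusted p = 0.111, 0.169 and 0.182). Above control, RPS2 at 0.27, RPS4X at 0.14 and RPLP0 at 0.13 had the smallest p. In FR2 they were RPL37 at -0.69 ± 0.24, RPL26L1 at -0.49 ± 0.18 and RPS29 at -0.80 ± 0.29 (SE, edgeR adjusted p = 0.101, 0.107 and 0.114). Above control, FR2 had RPS4X and RPS3A at 0.22 and RPL17 at 0.19. None of these values passed the test.

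FR3 had another order. RPL10 came first at 0.77 ± 0.26, then RPS2 at 0.84 ± 0.33 and RPS4X at 0.60 ± 0.26 (SE, edgeR adjusted p = 0.0963, 0.143 and 0.183). Over 31 alternatives the adjusted p of RPL10 ran from 0.037 to 0.528, and it was called in 2, by DESeq2 and without CONTROL_5, where RPS21 was called as well. RPS2 levels in FR3 were 7009.5, 7977, 12967, 5117 and 4258 CPM, against 6265, 2280.1, 2531, 4552 and 5283 CPM in control. Thus 3 FR3 libraries were above every control and the remaining 2 were within the control range. Below control in FR3 were RPL22L1 at -0.62, RPL26L1 at -0.28 and RPL7L1 at -0.15 (edgeR adjusted p of 0.37 or more).

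The comparisons among inseminated sows asked whether the added fractions mattered. Between FR2 and FR1, edgeR called 0 members and 0% of all genes, 0 members had an unadjusted p below 0.05 against 0.733% of all genes, and DESeq2 and limma-voom called 0 members. All 80 intervals lay within a 2-fold change. The median log2 difference was 0.030, beside 0.010 over all genes, and it was -0.029 without FR1_2 and -0.029 without FR2_3, so its sign rested on 1 library. RPL5 at 0.20 ± 0.22, RPL7 at 0.16 ± 0.21 and RPL7L1 at 0.12 ± 0.16 (SE) had the smallest p above 0. Below 0 these were RPL11 at -0.13, RPL36 at -0.11 and RPLP2 at -0.13 (edgeR adjusted p = 1.0 for all 6).

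FR3 had higher fitted values than FR2 for 80 of 80 members, with a median log2 difference of 0.39 beside 0.0061 over all genes, yet edgeR called 0 of them, where it called 0.00564% of all genes. At an unadjusted p below 0.05 there were 12 members, against 7.37% of all genes. DESeq2 and limma-voom called 0 members, where they called 21 and 1 of all genes. Against FR1 the figures were 80 of 80 above 0, a median of 0.41 beside 0.0073, 0 members called by any of the 3 tools, and 0% of all genes called by edgeR. There 14 members had an unadjusted p below 0.05, against 8.29% of all genes. Both differences rested on FR3_3 and FR3_4: without them the medians were -0.074 against FR2 and -0.054 against FR1. Without FR3_3 alone they were 0.15 and 0.15. Scaling by library totals alone gave medians of 0.17 and 0.19, with the median of all genes at -0.18 and -0.19. The plot of fitted changes sets all 7 comparisons side by side.

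**Figure D4:**
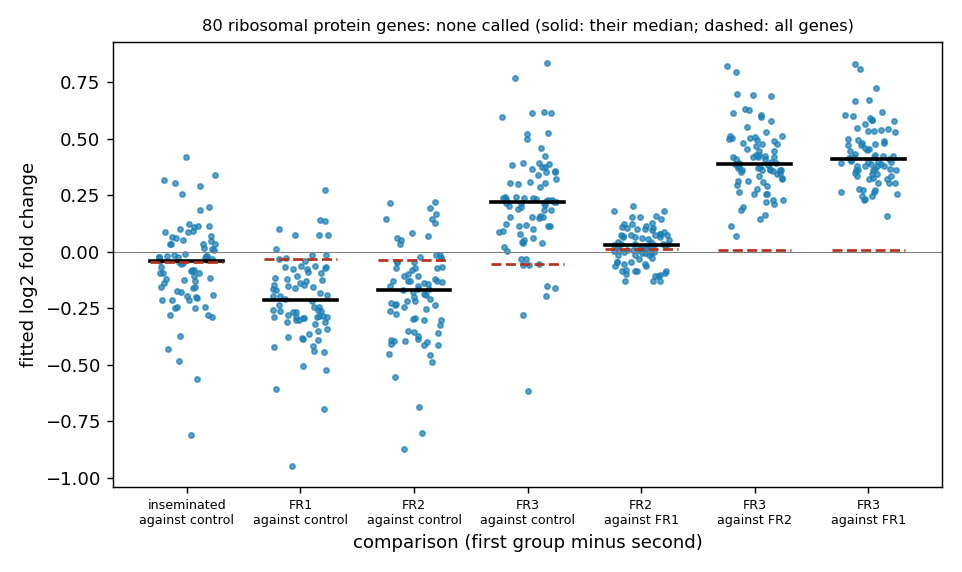
Fitted log2 fold changes (vertical axis) of the 80 members in 7 comparisons, each point 1 member, with the median of the members as a solid line and that of all genes tested as a dashed line. Members lie above 0 in both FR3 against FR2 and FR3 against FR1, with medians of 0.39 and 0.41 that were -0.074 and -0.054 without FR3_3 and FR3_4; no member was called in any comparison.

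RPL39, a short protein in the wall of the peptide exit tunnel, had the smallest p in both. Its level was 548, 737, 1455, 1056 and 541 CPM in FR3. In FR2 it was 600.5, 462, 555, 434 and 445 CPM, and in FR1 473, 403, 575, 479.8 and 511 CPM. FR3_2, FR3_3 and FR3_4 exceeded all FR1 and FR2 libraries, and FR3_1 and FR3_5 did not. The log2 difference was 0.80 ± 0.28 against FR2 and 0.83 ± 0.28 against FR1 (SE, edgeR adjusted p = 0.666 and 0.586). RPL39 also had the smallest p of the test for any difference among the 4 groups (edgeR adjusted p = 0.165), in which 0 of 80 members and 4.07% of all genes were called.

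RPS21, a small-subunit protein, followed RPL39, with 599, 917, 1535, 1024 and 568 CPM in FR3, 449 to 621 CPM in FR2 and 396 to 702 CPM in FR1. Its log2 difference was 0.82 ± 0.29 against FR2 and 0.81 ± 0.29 against FR1 (SE, edgeR adjusted p = 0.666 and 0.586). RPL36 differed by 0.69 ± 0.24 between FR3 and FR2, and RPL27 by 0.59 ± 0.22 between FR3 and FR1 (SE, edgeR adjusted p = 0.666 and 0.586). For RPS20, a protein of the head of the small subunit, the libraries separated without overlap between FR3 and FR2, the only member that did so, against 3.26% of all genes. The same count was 0 of 80 for FR3 against FR1 and for FR2 against FR1, where 2.44% and 0.716% of all genes separated. RPS20 had 2793, 3119, 5587, 3485 and 2321 CPM in FR3 and 2187 to 2318 CPM in FR2. The log2 difference of 0.61 ± 0.25 was not called (SE, edgeR adjusted p = 0.666), and the lowest FR3 library lay just above the highest FR2 library.

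To see single members apart from the shared block, each was also scaled to the summed counts of the 80 members, an analysis chosen after the data were seen. In this scale 1 of 80 members was called between inseminated and control sows, against 6.89% of all genes, or 5.56% in the lower direction. It was RPL37, which held 0.607%, 0.805%, 0.981%, 0.711% and 0.942% of the ribosomal protein counts in the 5 controls and 0.456% to 0.636% in the 15 inseminated libraries. CONTROL_1 was within the inseminated range and the other 4 controls were above it. The share fell by 0.52 on the log2 scale, with a standard error of 0.13 and an edgeR adjusted p of 0.0184. Without CONTROL_3 the change was -0.44 and was not called (edgeR adjusted p = 0.118).

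On the same scale RPL10 held 2.65% to 3.14% of the ribosomal protein counts in control and 3.08% to 4.23% after insemination, with a log2 change of 0.29 ± 0.10 (SE, edgeR adjusted p = 0.0784). RPL22L1 held 0.131% to 0.365% in control and 0.0826% to 0.196% after insemination (edgeR adjusted p = 0.0592). Neither passed the test. In the other 6 comparisons on this scale edgeR called 0 members, where it called 0.851%, 1.74% and 2.69% of all genes in FR1, FR2 and FR3 against control and 0% among the inseminated groups.

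Ribosomal proteins whose names lie outside the rule were looked at beside the members. Between inseminated and control sows the log2 change was -0.32 ± 0.18 for FAU, 0.11 ± 0.21 for RACK1 and -0.43 ± 0.19 for RPL36AL (SE, edgeR adjusted p = 0.286, 0.784 and 0.17), and none of these passed the test. The 21 elongation factors and other TOP messenger RNAs had a mean deviation of 0.61 in FR3_3, -0.51 in CONTROL_2 and -0.57 in CONTROL_3. Of these, 0 of 21 were called between inseminated and control sows, against 11.1% of all genes. Their median log2 change was 0.12, beside -0.048 over all genes, and the difference was not tested.

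Genes that build ribosomes were tested beside the proteins that make them up, and the difference between the lists was not tested. Of 68 ribosome assembly factors, 20 fell and 1 rose after insemination, with a median log2 change of -0.33, where 8.2% of all genes were called lower and 2.87% higher. Among those that fell were BOP1, needed to process the ribosomal RNA of the large subunit (-0.65 ± 0.10, SE, edgeR adjusted p = 0.000613), and NOB1, the nuclease that finishes 18S ribosomal RNA (-0.68 ± 0.13, SE, edgeR adjusted p = 0.00201). RRS1, which helps to bring in the 5S particle, fell by 0.87 and the helicase DDX56 fell by 0.54 on the log2 scale. The factor that rose was NOP2, a ribosomal RNA methyltransferase, at 1.08 ± 0.34 (SE, edgeR adjusted p = 0.0433). With 1 library left out the number that fell ran from 11 to 28, and it was 12 without CONTROL_1, 12 without CONTROL_3 and 11 without CONTROL_4. The mean deviation of the 68 factors was 0.63, -0.040, 0.12, 0.30 and -0.17 in CONTROL_1 to CONTROL_5. After insemination it ran from -0.14 in FR2_1 to 0.089 in FR3_3. CONTROL_5 was thus below every inseminated library, and CONTROL_2 lay among them.

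Ribosomal proteins of the mitochondrion, which form a separate ribosome, were the nearest structural counterpart. Of 77 tested, 16 fell and 0 rose after insemination, with a median of -0.32. MRPS25 fell by 0.80, MRPS18A fell by 1.29, MRPL38 fell by 0.66 and MRPL52 fell by 0.68 on the log2 scale, with edgeR adjusted p-values of 0.00987 or less. The number that fell was 4 without CONTROL_3 and 28 without CONTROL_2, the ends of its range, and 8 to 10 without CONTROL_1, CONTROL_5, FR1_2, FR2_1, FR2_4, FR3_1 or FR3_2. The mean deviation of this list was 0.41, -0.15, 0.13, -0.027 and 0.54 in CONTROL_1 to CONTROL_5. After insemination it ran from -0.29 in FR1_2 to 0.36 in FR3_3. Only CONTROL_1 and CONTROL_5 were above that range. Per fraction, 4, 13 and 6 assembly factors and 2, 12 and 2 mitochondrial ribosomal proteins fell in FR1, FR2 and FR3, where 1.99%, 3.98% and 2.85% of all genes were called lower. With only the libraries of the groups compared, edgeR called 0, 1 and 0 genes of any kind in these 3 comparisons. Among epithelial markers, 6 of 13 fell after insemination and their summed level was 4499 to 7840 CPM in control and 1631 to 6604 CPM after insemination. Library by library they did not follow these lists throughout. CONTROL_2 had the highest mean epithelial deviation, 0.90, beside -0.040 for assembly factors and -0.15 for mitochondrial ribosomal proteins. CONTROL_5 had an epithelial deviation of 0.39, beside -0.17 for assembly factors and 0.54 for mitochondrial ribosomal proteins. Stromal markers moved the other way, with 2 of 11 higher and summed levels of 1911 to 9078 CPM in control and 5051 to 18286 CPM after insemination. Summed markers of cycling cells were 743, 39.0, 36.1, 336 and 38.8 CPM in CONTROL_1 to CONTROL_5 and 54.9 to 409 CPM after insemination. CONTROL_1 and CONTROL_4, the controls highest in these markers, also had the highest mean deviations of the assembly factors and the highest RPL22L1 levels. For mitochondrial ribosomal proteins CONTROL_4 was at -0.027. The part of epithelial, stromal and cycling cells in these counts was not tested.

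The lists around the ribosome are read against the 8.2% of all genes called lower and the 2.87% called higher, and the difference from these shares was not tested. Of 15 genes of RNA polymerase I, which copies the ribosomal RNA genes, and its factors, 2 fell: TAF1C by 0.41 and RRN3 by 0.71 on the log2 scale. Among 30 initiation and release factors, only EIF6, which keeps the subunits apart until assembly is complete, fell, by 0.41. In the mTOR complex 1 list 2 of 28 rose and 2 fell. On the initiation list the count that fell was below the share of all genes. On the mTOR list the count that fell was near that share, and the count that rose was above the 2.87% of all genes. The translational repressor EIF4EBP1 fell by 1.27 and the mTOR inhibitor DDIT4 fell by 0.62, while TSC1, also an inhibitor, was higher by 0.65 and the repressor EIF4EBP2 by 0.52 on the log2 scale. On the list of ribosome quality control and stress genes, 4 of 23 fell, namely ASNS by 1.25, EDF1 by 0.52, ATF3 by 2.29 and PPP1R15A by 1.09. The plot of lists shows these genes beside the cytosolic ribosomal proteins.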

How the data were processed

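Messenger RNA of the uterus of 20 sows was captured on poly-T beads and read in pairs, per the labels' protocols. These leave the strand of the libraries undecided, as they describe second strands with and without a mark. The submitters' processing notes name CASAVA, STAR 2.7.9a and Salmon 1.10.1. Build, annotation and strand option: not given in the sources used here. Per gene, the authors deposited estimated counts (expected counts, unscaled), 87.2% of them whole, and all were rounded before use. Of 30369 rows, 24 without a gene were left out, which held at most 0.0133% of a library's counts. Of the 30345 gene rows, 30328 identifiers carried the same symbol in the RefSeq table of assembly Sscrofa11.1, used for names and for gene span. Column names give the group of a library and not its sow, and the labels call each sample a separate sow.

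The table was fitted whole with edgeR 4.0.16 (R 4.3.3): TMM factors, filterByExpr, which kept 17745 genes and all 80 members, 1 quasi-likelihood fit of 20 libraries with 16 residual degrees of freedom, and 2-sided tests of 7 comparisons and of any group difference. P-values were adjusted by the Benjamini-Hochberg method over all genes tested, and a gene was called below 0.05. "Inseminated" is the mean of FR1, FR2 and FR3. Standard errors are the log2 change divided by the root of the F statistic. Named members are, per comparison, up to 10 called genes or else the 3 with the smallest p per direction, the paralogs with their parents, the 5 extremes of level and of SD, a panel of 15, and the 3 least correlated with the rest; levels are not ranked in the text, because they are not per length. RPS29 in inseminated against control and RPS20 were named after their values were seen. Of each other list, up to 4 called genes with the smallest p were named.

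Alternatives covered other scalings, filters and thresholds, DESeq2 1.42.0, limma-voom (limma 3.58.1), only the libraries compared, and each library left out. Leaving out 2 libraries together and scaling to the ribosomal protein total were added after the data were seen. The members, lists and tests were chosen with earlier results of these data known. The procedure was tested on simulated counts, with changes set between inseminated and control sows in genes of all levels. It recovered 28% of 75 genes changed 2-fold, 85.2% of 54 changed 4-fold and 96.7% of 61 changed 8-fold. There were 4 false calls. Most 2-fold changes were thus missed in the simulation, so a gene that was not called may still have changed. Recovery among the ribosomal protein genes alone was not tested. For these, the 95% intervals of 78 of 80 members lay within a 2-fold change between inseminated and control sows.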

Additional observations from a re-analysis of the deposited data

Results flagged for a closer look

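In CONTROL_5, 3 members stood far above the other 4 control libraries: RPL37 at 1559 CPM, RPL39 at 1158 CPM and RPS21 at 1178 CPM. In each case the gap to the next control took up more of the range of the group than Dixon's 95% critical value of 0.71 for 5 samples, at 0.727, 0.816 and 0.764. The test was run on 8 values in 4 groups, 32 groups in all, and chance marks about 1 in 20 of them. The members share the same libraries, so the 3 results are not separate. CONTROL_5 also held the highest level of 11 members.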

How the results depend on the processing

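Members called between inseminated and control sows numbered 1 with relative log expression factors, TMM factors without the members, a minimum of 1 CPM in 10 libraries or DESeq2 (RPL26L1 in each), 2 at an adjusted p below 0.10, 0 to 2 with 1 library left out, and, as alternatives chosen after seeing the data, 3 without FR3_3 and FR3_4, 3 without CONTROL_2 and CONTROL_3, and 1 scaled to the ribosomal protein total. DESeq2 gave 1, 3 and 1 in FR1, FR2 and FR3; leaving out CONTROL_2 and CONTROL_3 gave 1 in FR2; FR3 had 1 at an adjusted p below 0.10 and 0 to 2 with 1 library left out, 2 being RPS21 and RPL10 without CONTROL_5. The other alternatives gave 0 in these 4 comparisons, and all gave 0 among the inseminated groups. Member medians without FR3_3 and FR3_4 were -0.24, -0.074 and -0.054 for FR3 against control, FR2 and FR1. The inseminated median ran from -0.15 to 0.11 with 1 library left out. Without CONTROL_2 and CONTROL_3, changes in FR1 turned to -0.081 for RPS2, -0.15 for RPS4X and -0.19 for RPLP0 (-0.0091 to 0.30 with 1 library left out, the lowest without CONTROL_2), and in FR2 to -0.090 for RPS4X, -0.085 for RPS3A and -0.058 for RPL17. With totals that leave out mitochondrial genes and the 20 most abundant others, the summed share was 13.0% in control, 13.2% in FR1, 13.4% in FR2 and 15.4% in FR3, higher in each group. Assembly factors that fell numbered 13 by library totals and 11 to 28 with 1 library left out; mitochondrial ribosomal proteins 7 by library totals, 9 by upper quartile, 10 by limma-voom, 27 by DESeq2 and 4 to 28 with 1 library left out. Over all genes, edgeR called 1965, 461, 985 and 758 in inseminated, FR1, FR2 and FR3 sows, DESeq2 2887, 1449, 2096 and 1876, and limma-voom 1308, 185, 705 and 295; with only the groups compared, FR1, FR2 and FR3 gave 0, 1 and 0, and with 1 library left out the counts ran from 988 to 2730, 99 to 1372, 309 to 1881 and 58 to 1869. Library totals alone gave 655 higher and 1087 lower for 510 and 1455 in inseminated sows, 173 and 223 for 108 and 353 in FR1, and 400 and 391 for 278 and 707 in FR2. The cause of these shifts was not tested. Fits of only the groups compared do not apply to inseminated against control, which uses all libraries. No paired analysis was possible because the sow numbers run on through the groups and the columns name no sow.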
